A study of Mus musculus with 18 samples.

Results

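The nuclear-encoded subunits of the respiratory chain were described in cells sorted from mouse embryos at embryonic day 7.5. Members were chosen by gene name alone: symbols of the Nduf a, b, c, s and v series, Sdh a to d, Uqcr, Cyc1, Cox4 to Cox8 and Atp5. The rule found 89 of the 24498 genes of the table and used no measured value. Of these, 36 encode subunits of complex I, 4 of complex II, 9 of complex III, 17 of complex IV and 15 of complex V. The other 8 match the names but encode no subunit of a complex as counted here: Sdhaf1 to Sdhaf4, which help to assemble complex II, Cox7a2l, a factor of respiratory supercomplexes, and Atp5s, Atp5sl and Ndufa4l2. The protein of Ndufa4 was long counted with complex I and is now placed in complex IV. It is kept here under the complex of its name.

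All embryos were homozygous for FoxA2 fused to the red fluorescent protein tagRFP at its own locus, on a mixed C57Bl6/J and CD-1 background. FoxA2 is a forkhead transcription factor of the endoderm, node and notochord. The fusion was either full length (FoxA2-WT-tagRFP, WT below) or carried a deletion of an α-helix of 10 amino acids (FoxA2-ΔHx-tagRFP, ΔHx below), and every group carried the fusion. Cells of each genotype were sorted by red fluorescence into High, above the signal of heterozygous cells, Mid, from above autofluorescence to the heterozygous maximum, and Neg, without signal. Each of the 6 combinations had 3 biological replicates, each from about 10 pooled embryos that had not been sexed and had lost their extra-embryonic part. Each library was made from RNA equal to that of 1000 cells with SMART-Seq2, a full-length cDNA method.

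The respiratory chain sits in the inner mitochondrial membrane. Complex I takes electrons from NADH and complex II from succinate. Complex III passes them through cytochrome c to complex IV, which reduces oxygen, and complexes I, III and IV pump protons. Complex V, the ATP synthase, uses the proton gradient to make ATP. Most subunits are encoded in the nucleus and a core set in mitochondrial DNA, and the gene table analysed here held 0 of those 13 mitochondrial genes. Nuclear genes of the chain are classically described as targets of the factors NRF1, GABP (an ETS family protein) and YY1. Early post-implantation embryos are known for intense glycolysis alongside respiration.

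Promoter windows from RefSeq (GRCm38.p6), which run from 250 bases before a transcript start to 50 after it, were found for 73 members, 79 windows in all. The NRF1 letters GCGCANGCG, searched on both strands, stood in 23 of the 79 windows (29.1%), against 6.25% of all 32851 windows of that length. The ETS letters CCGGAAG stood in 19 (24.1%, against 8.86%), and the YY1 letters AANATGGCG in 13 (16.5%, against 2.38%). The letters TGTTTAC, a core of forkhead sites, stood in 3 member windows (3.8%, against 3.65%). These were a window of Cox7a2 and overlapping windows of Atp5sl. No window held motifs of different names that overlapped. At least 1 of the NRF1, ETS and YY1 motifs was found for 43 members. These are matches of letters and not measured binding.

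Among windows of the 22 members that were lower in WT High than in WT Neg, 6 of 19 held the NRF1 letters, 4 the ETS letters, 2 the YY1 letters and 1 the forkhead letters. Among those of the 7 members that were higher, the counts were 2, 3, 0 and 0 of 7. NRF1 and ETS letters thus stood in windows of members that moved in either direction, and no test compared these small counts. Parts of these windows before the transcript start that overlap no exon of the annotation are shown for 6 members described below. Sequences run 5′ to 3′ on the gene's strand, with motif letters in capitals. For Sdhaf2 the part lies inside the annotated span of the gene (19:10500534-10526142). The 6 members were picked after their values were seen, and the matches named next are those inside the printed part. Sdhd, Sdhaf2 and Cox7a2 were lower in WT High than in WT Neg and hold, in that order, an ETS, an ETS and a forkhead match. Atp5e and Ndufa11 were higher and hold an ETS match and a pair of NRF1 matches that overlap on opposite strands. Cox6a1 was higher in WT Mid and holds 3 NRF1 matches, of which a pair overlaps in the same way.
Sdhd, chr9:50603850-50603909, minus strand: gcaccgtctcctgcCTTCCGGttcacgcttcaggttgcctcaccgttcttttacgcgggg
Sdhaf2, chr19:10525328-10525459, minus strand: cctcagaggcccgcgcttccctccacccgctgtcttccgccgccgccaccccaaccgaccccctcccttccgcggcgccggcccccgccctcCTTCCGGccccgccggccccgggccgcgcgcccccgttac
Cox7a2, chr9:79759879-79760103, minus strand: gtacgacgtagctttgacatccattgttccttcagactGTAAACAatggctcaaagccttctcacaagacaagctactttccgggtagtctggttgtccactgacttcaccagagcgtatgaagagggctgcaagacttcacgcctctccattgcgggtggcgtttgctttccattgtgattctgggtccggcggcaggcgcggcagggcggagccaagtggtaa
Atp5e, chr2:174464106-174464351, minus strand: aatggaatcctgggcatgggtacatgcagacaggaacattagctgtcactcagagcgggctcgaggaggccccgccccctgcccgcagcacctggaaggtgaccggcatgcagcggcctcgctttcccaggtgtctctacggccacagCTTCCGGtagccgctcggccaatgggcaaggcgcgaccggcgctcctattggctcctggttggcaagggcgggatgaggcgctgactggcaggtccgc
Ndufa11, chr17:56717681-56717761, plus strand: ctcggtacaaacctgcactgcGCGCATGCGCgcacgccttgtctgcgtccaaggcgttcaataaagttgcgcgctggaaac
Cox6a1, chr5:115348982-115349129, minus strand: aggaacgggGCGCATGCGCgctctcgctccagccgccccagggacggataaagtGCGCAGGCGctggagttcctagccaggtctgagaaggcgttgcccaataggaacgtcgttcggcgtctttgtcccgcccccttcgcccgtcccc

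Sequencing gave 12302196 to 17194136 gene-assigned reads a library, from 15649 to 17917 detected genes. Values are the deposited normalised read counts, a count of reads divided by a size factor of the library. A ribosomal RNA precursor, Rn45s, took 23.7% to 44.0% of the reads in genes. All members together took 1.56% to 1.79% of the other reads, lowest in ΔHx High replicate 3, which also had the fewest detected genes. Foxa2 itself was 2483, 1742 and 1556 in WT High, 871, 812 and 621 in WT Mid and 40.6, 20.3 and 23.6 in WT Neg. It was 1848, 2078 and 2385 in ΔHx High, 547, 611 and 1229 in ΔHx Mid and 62.5, 55.1 and 43.4 in ΔHx Neg, so the gates were ordered as their labels say. Summed values of 6 node and notochord markers were 22820 to 35760 in WT High, 4538 to 6540 in WT Mid and 1678 to 3354 in WT Neg. Those of 6 visceral endoderm markers were 2177 to 5576, 24680 to 30750 and 854 to 924, so Mid was the gate richest in these. Parietal endoderm markers ranged from 24430 to 155500 in WT Mid and from 9487 to 13170 in ΔHx Mid. Blood and endothelium markers were highest in WT Neg, at 1416 to 2852, against 299 to 399 in WT High.

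Of the 89 members, 84 reached a value of 10 in 3 or more libraries and were tested with limma on log2(value + 1). A change is called at a Benjamini-Hochberg adjusted p under 0.05 over all 14711 genes tested. The other 5 were at or near 0: the muscle or germ line forms Cox6a2 (0 reads in all 18 libraries), Cox7b2 (35 reads), Cox8b (3 reads) and Cox8c (3 reads), and Ndufs5. Ndufs5 is a ubiquitous subunit, and it was listed at 0 in all libraries. Of its 75-base stretches, 32.4% also occur in another gene, and the cause of the 0 was not tested. Atp5l (76% of stretches shared with other genes), Atp5g2 (86.9%), Sdhaf1 (68.7%) and Atp5g1 (59.6%) are uncertain for the same kind of overlap. So are Cox7c (50.4%), Atp5h (40.3%), Atp5o (39.1%) and Ndufb4 (35.2%). The counting kept no strand, so reads of antisense genes cannot be told apart from theirs.

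Per kilobase of transcript, levels spanned a wide range within each complex. In WT High the mean value per kilobase was 11200 ± 1140 (SD, n = 3) for Atp5b, the catalytic β subunit of complex V, the highest member. It was 8282 ± 686 for Cox4i1, the main form of complex IV subunit 4. In complex II it ran from 362 ± 5.31 for Sdhc to 2136 ± 84.03 for Sdhd, which encode the membrane anchors. In complex I it ran from 207 ± 30.0 for Ndufb4 to 5241 ± 243 for Ndufa4 among members with reads. Genes with annotated long ends, such as Sdhc, look low on this scale.

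Between FoxA2-high and FoxA2-negative cells of WT embryos the members did not move as a block. Members called higher in High all had transcripts under 700 bases, and those called lower included core or catalytic subunits of complexes I, II, III and V. In WT High against WT Neg, 7 of 84 members were higher and 22 lower (8.33% and 26.2%), while 22.6% of all 14711 genes were called higher and 21.8% lower. In this fit the share lower is near that of all genes, and the share higher is below it. The median log2 change of members was -0.05, against 0.02 over all genes. The split depends on the scaling: quantile normalisation gave 19 higher and 10 lower, and equal totals without Rn45s gave 16 and 15. These scalings moved the median of all genes to -0.09 and 0.13. Of all 14711 genes, quantile normalisation called 2810 higher and 3550 lower, and equal totals 3931 and 2547. The main fit called 3331 and 3201. All 7 members called higher stayed so under all 3 scalings, as did 8 of the 22 called lower. In each of the 19 settings tried, Cox6b1, Cox6b2, Ndufa3, Ndufa6 and Ndufb7 were higher, and Atp5a1, Atp5g1, Cox4i2, Ndufa5, Ndufs1, Sdhaf2 and Uqcrc1 were lower. In bulk RNA, fewer cells that express a gene and less RNA per cell cannot be told apart.

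**Figure D1:**
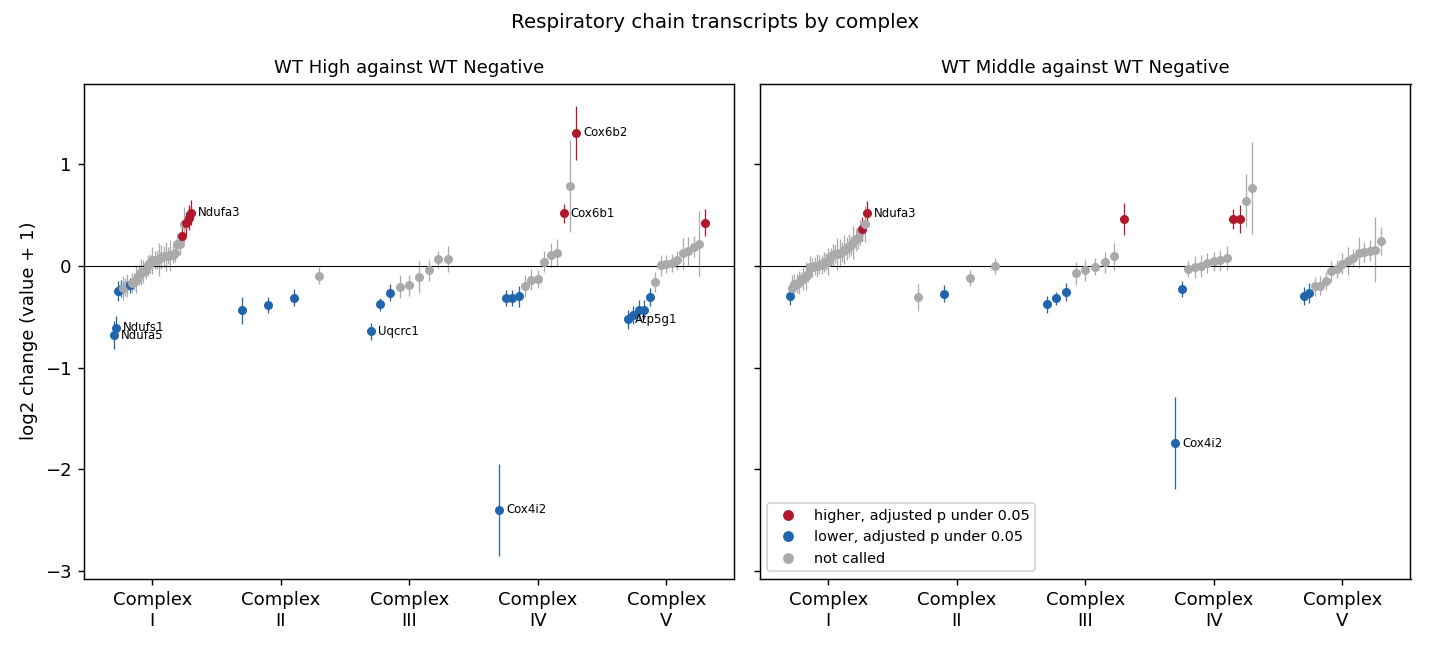
Log2 change on the log2(value + 1) scale of each tested subunit, by complex, in WT High against WT Neg and WT Mid against WT Neg. Points are limma estimates and bars their standard errors, over 3 libraries a group. Most points lie within 0.5 of 0, and Cox4i2 (-2.40) and Cox6b2 (1.30), both in complex IV, lie farthest out in High against Neg.

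In complex I the catalytic core and the accessory subunits differed in their counts. Of 7 core subunits 0 were higher and 3 lower (Ndufs1, Ndufs8 and Ndufv2), with a median change of -0.19. Of 28 tested accessory subunits 4 were higher and 2 lower, with a median of 0.06. No test compared the 2 sets. They also differ in transcript length. The 7 core transcripts run from 758 (Ndufs7) to 2661 bases (Ndufs1). The 4 higher accessory ones run from 515 (Ndufa3) to 623 bases (Ndufb7). The part of length in these counts was not tested. Of the 3 core calls only that of Ndufs1 held under both other scalings. Those of Ndufs8 and Ndufv2 were also lost with the Rn45s share of each library as a covariate, without a filter and in most fits that left out a library.

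Ndufs1, the largest core subunit, which carries iron-sulfur clusters (1:63143596-63176833, minus strand, mm10), was 1210, 1221 and 1508 in WT High, 1618, 1711 and 2038 in WT Mid and 2062, 1924 and 1993 in WT Neg. High did not overlap with Mid or Neg. Its log2 change from Neg to High was -0.61 ± 0.11 (SE, adjusted p = 0.000194), and from Mid to High -0.45 ± 0.11 (adjusted p = 0.00583). In ΔHx it was 1622, 1463 and 1641 in High, 1865, 1597 and 1444 in Mid, against 2357, 2069 and 2170 in Neg. High and Mid libraries were below Neg there, by -0.48 and -0.43 in log2 (adjusted p = 0.00178 and 0.0057). Of its exon bases, 9.32% overlap Ino80dos, a transcript on the locus. Ndufv1, the core subunit that binds NADH, was 1549, 1493 and 1589 in WT High and 1618, 1712 and 1842 in WT Neg, and did not pass the test.

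Ndufa5, an accessory subunit of the arm that faces the matrix (6:24518666-24528013, minus strand), was 644, 535 and 437 in WT High, 964, 781 and 667 in WT Mid and 809, 878 and 876 in WT Neg. Here Mid was at the level of Neg and High stood alone. The log2 change was -0.68 ± 0.14 (SE) against Neg (adjusted p = 0.00057) and -0.58 ± 0.14 against Mid (adjusted p = 0.00461). ΔHx libraries had 466, 527 and 550 in High, 778, 745 and 863 in Mid, against 780, 831 and 840 in Neg. The change from Neg to High there was -0.67 ± 0.14 (adjusted p = 0.000703).

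Ndufa3, a small accessory subunit (7:3617373-3620327, plus strand), moved the other way. It was 566, 643 and 529 in WT High, 579, 607 and 541 in WT Mid and 419, 393 and 396 in WT Neg. Every High and Mid library was above every Neg library. The log2 change was 0.52 ± 0.12 (SE) in High (adjusted p = 0.00196) and 0.51 ± 0.12 in Mid (adjusted p = 0.00332). In ΔHx it was 548, 606 and 489 in High, 594, 552 and 705 in Mid, against 424, 364 and 393 in Neg. Ndufb7, an accessory subunit on the intermembrane side, was 1356, 1205 and 1146 in WT High against 828, 866 and 976 in WT Neg (0.47 ± 0.12 SE, adjusted p = 0.00445). Ndufa6 was 1663, 1411 and 1399 against 1053, 1106 and 1185 (0.42 ± 0.11 SE, adjusted p = 0.00578). Ndufa11 was called as well (0.30 ± 0.11 SE, adjusted p = 0.0337). Its call, and that of Atp5e below, was lost with the Rn45s covariate and in part of the fits that left out a library.

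Complex II, which also works in the citric acid cycle, had 0 of 4 subunits higher and 3 lower in WT High against Neg. Sdhd, a membrane anchor, was 2530, 2622 and 2736 in High, 3165, 2920 and 3388 in Mid, against 3361, 3465 and 3455 in Neg (-0.38 ± 0.078 SE from Neg to High, adjusted p = 0.000549). Sdhb, the iron-sulfur subunit, was 1956, 1935 and 1915 in High and 2383, 2321 and 2511 in Neg (-0.31 ± 0.085 SE, adjusted p = 0.00544). Sdha, the flavoprotein, was 2540, 3025 and 3385 in High and 4002, 3855 and 4172 in Neg (-0.44 ± 0.13 SE, adjusted p = 0.0116). In all 3 the High libraries were below all Neg libraries. Sdhc, the other anchor, was 1130, 1164 and 1148 against 1208, 1215 and 1264 and did not pass. These 3 calls were lost under quantile normalisation, that of Sdhb also with equal totals, and that of Sdha also with the Rn45s covariate and without WT High replicate 1. Of the assembly factors, Sdhaf2, which attaches the flavin to Sdha, was 670, 685 and 723 in WT High and 914, 960 and 942 in WT Neg (-0.44 ± 0.11 SE, adjusted p = 0.004). Sdhaf4 was 385, 365 and 420 in WT High and 277, 283 and 279 in WT Mid, the only member higher in High than in Mid (0.48 ± 0.13 SE, adjusted p = 0.011). Sdhaf1 and Sdhaf3 did not pass the test in WT.

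Complex III held the member with the smallest adjusted p of this contrast. Uqcrc1, the large core subunit 1 (9:108936633-108949623, plus strand), was 3238, 3243 and 3777 in WT High, 4025, 3974 and 4339 in WT Mid and 4852, 5566 and 5628 in WT Neg. The 3 gates did not overlap, and each step was called. The log2 change was -0.65 ± 0.083 (SE) from Neg to High (adjusted p = 3.83e-06), -0.38 from Neg to Mid (adjusted p = 0.00178) and -0.27 from Mid to High (adjusted p = 0.0223). The call from Mid to High was lost under both other scalings, with the compared groups alone, and without WT High replicate 1 or 2 or WT Mid replicate 3. In ΔHx it was 3773, 3325 and 3682 in High, 3977, 3730 and 3592 in Mid, against 5228, 5031 and 5165 in Neg. There High and Mid overlapped and both lay below Neg (-0.52 and -0.45, adjusted p = 5.27e-05 and 0.000397).

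Cyc1, the cytochrome c1 subunit that hands electrons to cytochrome c, was 3052, 3060 and 2984 in WT High, 3115, 3129 and 3218 in WT Mid and 3845, 3994 and 3983 in WT Neg. High and Mid lay below Neg (-0.38 ± 0.063 SE, adjusted p = 7.21e-05, and -0.32, adjusted p = 0.000672), and the call in High was lost under quantile normalisation. Uqcrfs1, the Rieske iron-sulfur protein, was 2362, 2671 and 2799 in WT High and 3163, 3154 and 3066 in WT Neg (-0.26 ± 0.087 SE, adjusted p = 0.018), a call lost under both other scalings, with the Rn45s covariate, and without WT High replicate 1 or WT Neg replicate 2. Uqcrq, a small subunit, peaked in Mid, with 1867, 1743 and 1500 against 1176, 1344 and 943 in WT High and 1158, 1196 and 1351 in WT Neg. It was higher in Mid than in Neg by 0.46 ± 0.16 (SE, adjusted p = 0.0305) and lower in High than in Mid by -0.57 (adjusted p = 0.0116). The call from Neg to Mid was lost with the Rn45s covariate and without replicate 1 or 2 of WT Mid or of WT Neg, and that from Mid to High without WT High replicate 3. ΔHx Mid had 1329, 1568 and 2063, against 1001, 1137 and 806 in ΔHx High and 978, 1141 and 1095 in ΔHx Neg. In ΔHx the steps were 0.60 from Neg to Mid and -0.74 from Mid to High (adjusted p = 0.00615 and 0.0017). Visceral and parietal endoderm markers were also highest in Mid, and their part in this was not tested.

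In complex IV, 1 of 10 ubiquitous subunits was higher in WT High than in Neg and 3 were lower. Cox6b1, a subunit on the outer side of the enzyme (7:30616861-30626151, minus strand), was 2932, 2751 and 2454 in WT High, 2722, 2631 and 2459 in WT Mid and 1973, 1854 and 1861 in WT Neg. All High and Mid libraries were above all Neg libraries (0.51 ± 0.095 SE, adjusted p = 0.000218, and 0.46, adjusted p = 0.00113). In ΔHx it was 2736, 2665 and 2123 in High, 2835, 2899 and 2852 in Mid, against 2037, 2065 and 1830 in Neg (0.34 and 0.54, adjusted p = 0.00778 and 0.000283). Cox6a1 was 2826, 2183 and 1932 in WT Mid and 1548, 1692 and 1751 in WT Neg (0.46 ± 0.14 SE, adjusted p = 0.0135), with 2122, 1794 and 1556 in WT High, which overlapped with Neg. Its call in WT Mid was lost with the Rn45s covariate and without replicate 1 of WT Mid, the library with the highest value, or replicate 1 of WT Neg.

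Those lower were Cox5a, Cox7a2 and Cox7c. Cox5a was 2702, 2859 and 2700 in WT High, 3166, 3332 and 3581 in WT Mid and 3337, 3356 and 3605 in WT Neg, so High alone was low (-0.32 ± 0.082 SE from Neg, adjusted p = 0.00364). Cox7a2 was 3257, 3276 and 3034 in WT High against 3933, 3891 and 4128 in WT Neg (-0.32 ± 0.079 SE, adjusted p = 0.0025). All 3 calls were lost under quantile normalisation. That of Cox7c was also lost with equal totals and without WT High replicate 3 or WT Neg replicate 3. Of the 75-base stretches of Cox7c, 50.4% also occur in other genes. Cox4i1, the anchor of this complex in the comparison, was 6586, 6324 and 5600 in WT High, 6370, 6060 and 5629 in WT Mid and 5046, 6095 and 6083 in WT Neg, which overlapped.

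The tissue forms of complex IV gave the widest changes of the set, at low levels. Cox4i2, the form of subunit 4 described in lung and at low oxygen (2:152754173-152765037, plus strand), was 5.99, 11.8 and 11.5 in WT High, 12.3, 15.3 and 19.2 in WT Mid and 45.6, 58.8 and 58.0 in WT Neg. It was 15.8, 4.53 and 4.12 in ΔHx High, 16.7, 18.5 and 12.5 in ΔHx Mid and 58.0, 67.2 and 55.7 in ΔHx Neg. Every Neg library was above every High and Mid library in both genotypes. The log2 change from Neg to High was -2.40 ± 0.45 (SE, adjusted p = 0.000267) in WT and -2.97 ± 0.45 (adjusted p = 3.19e-05) in ΔHx. The WT High libraries held 31 reads of it in all and the WT Neg libraries 159. Per length, Cox4i2 was 0.954% ± 0.033 (SD, n = 3) of Cox4i1 and Cox4i2 together in WT Neg, 0.268% ± 0.0755 in WT Mid and 0.165% ± 0.0629 in WT High. The shares of High and Neg did not overlap (two-sided exact permutation p = 0.1, the smallest that 3 against 3 allow). Markers of blood and endothelium were also higher in WT Neg than in WT High. So were those of lateral mesoderm (2617 to 3283 against 601 to 731) and of muscle (440 to 678 against 107 to 134). In WT Mid, markers of blood and endothelium were 240 to 280, of lateral mesoderm 388 to 419 and of muscle 354 to 796. Their part in this result was not tested. Ndufa4l2, a low oxygen paralogue of Ndufa4, was 11.99, 7.28 and 13.3 in WT High and 17.2, 25.3 and 37.1 in WT Neg (-1.19 ± 0.43 SE, adjusted p = 0.0316), a call lost with the Rn45s covariate, with no filter and without WT High replicate 2 or WT Neg replicate 2 or 3.

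Cox6b2, the form of subunit 6b described in testis and sperm (7:4751792-4753094, minus strand), moved with its partner Cox6b1. It was 180, 128 and 126 in WT High, 127, 72.6 and 77.6 in WT Mid and 57.9, 45.6 and 70.7 in WT Neg. In ΔHx it was 138, 162 and 124 in High, 127, 91.7 and 120 in Mid, against 55.8, 70.0 and 66.1 in Neg. Every High and Mid library was above every Neg library of its genotype. The log2 change from Neg to High was 1.30 ± 0.26 (SE, adjusted p = 0.000465) in WT and 1.13 ± 0.26 (adjusted p = 0.00177) in ΔHx. Its share per length of Cox6b1 and Cox6b2 together was 5.60% ± 0.745 (SD, n = 3) in WT High, 3.79% ± 1.04 in WT Mid and 3.31% ± 0.705 in WT Neg. High and Neg did not overlap (two-sided exact permutation p = 0.1, the smallest possible). Cox7a1, the heart and muscle form of subunit 7a, was 43.2, 22.8 and 23.9 in WT High and 13.5, 15.2 and 20.8 in WT Neg, and did not pass (adjusted p = 0.173). In ΔHx, at 21.0, 40.8 and 23.9 against 10.0, 18.7 and 8.26, it did (1.17 ± 0.45 SE, adjusted p = 0.0438). That call was lost under quantile normalisation, with the Rn45s covariate, with no filter or a filter at 50, in edgeR and with the compared groups alone. It was also lost without ΔHx High replicate 2 or 3 or ΔHx Neg replicate 1 or 3. Whether the genotypes differ in the change from Neg to High was tested as an interaction, which called 0 members.

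**Figure D2:**
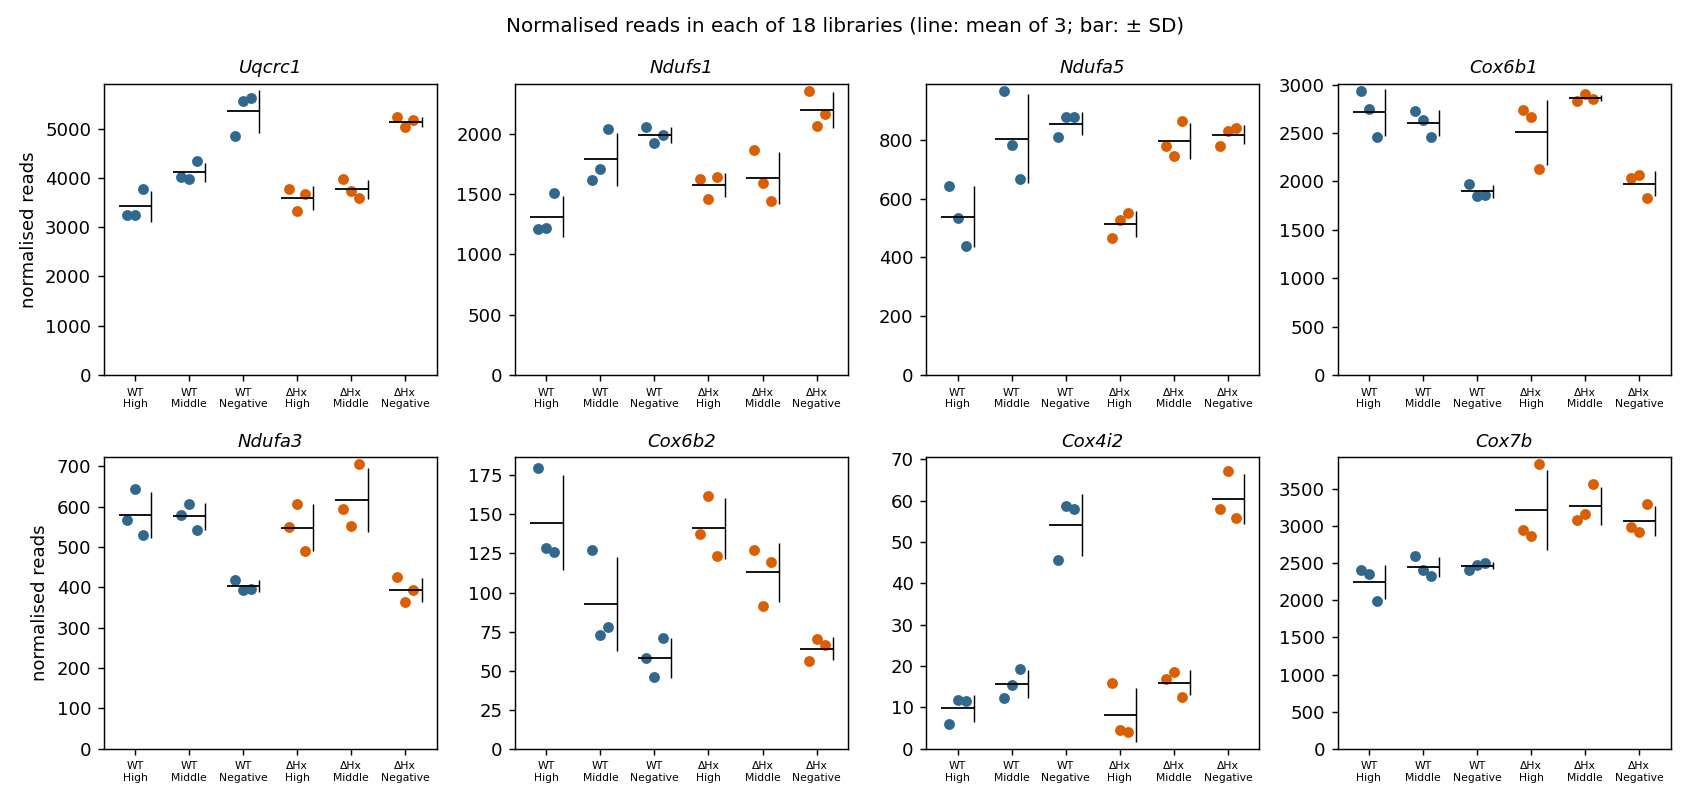
Normalised read counts of 8 members in each of the 18 libraries, by group of genotype and gate. Points are libraries, lines group means and bars SD (n = 3), each panel with its own axis. Uqcrc1, Ndufs1 and Ndufa5 are low in High, and in ΔHx the High and Mid libraries of Uqcrc1 and Ndufs1 overlap. Cox6b1 and Ndufa3 are low in Neg, Cox6b2 is highest in High, Cox4i2 is highest in Neg, and Cox7b differs by genotype.

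In complex V the F1 head had 3 of 5 subunits lower and 1 higher in WT High against Neg. Atp5a1, the α subunit, was 10452, 11636 and 12408 in High and 15070, 15452 and 15993 in Neg (-0.43 ± 0.097 SE, adjusted p = 0.0012). Atp5b, its catalytic partner, was 19712, 20779 and 23913 in High and 25255, 26277 and 27879 in Neg (-0.31 ± 0.091 SE, adjusted p = 0.0101), and its call was lost under both other scalings and without WT High replicate 1. Atp5c1, the γ subunit, was 4882, 5032 and 5338 in High and 6835, 7183 and 7314 in Neg (-0.48 ± 0.087 SE, adjusted p = 0.000162). In all 3 the groups did not overlap, and the call of Atp5c1 was lost under quantile normalisation. Atp5e, the ε subunit of the central stalk, rose: 1983, 1818 and 1558 in High against 1341, 1262 and 1375 in Neg (0.42 ± 0.13 SE, adjusted p = 0.0152).

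Of the 10 members of the peripheral stalk and the Fo membrane part, 2 were lower in WT High and 0 higher. Atp5f1, the stalk subunit b, was 3110, 3527 and 3665 in High and 4401, 4625 and 4869 in Neg (-0.43 ± 0.094 SE, adjusted p = 0.000902), a call lost under quantile normalisation. Atp5g1, Atp5g2 and Atp5g3 encode the same mature c subunit of the ring. Atp5g1 was 1145, 1174 and 1047 in High, 1522, 1363 and 1356 in Mid, against 1472, 1689 and 1697 in Neg (-0.53 ± 0.091 SE from Neg to High, adjusted p = 0.000101). Atp5g3 was 3147, 3286 and 2846 against 3402, 3561 and 3411 and did not pass. Its change of -0.16 became 0.08 under quantile normalisation. Since Atp5g1 and Atp5g2 share stretches with other genes, no ratio between the 3 is given.

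Shares of each complex in the summed member values do not depend on a scaling by 1 factor per library (size factors or equal totals). Complex I made up 29.1%, 27.5% and 26.8% of the sum in WT High and 25.1%, 24.7% and 25.1% in WT Neg. Complex V made up 36.1%, 37.5% and 39.3% in WT High and 39.95%, 40.3% and 40.3% in WT Neg. Of the complex V sum in WT High replicate 1 (59920), Atp5a1 gave 10452 and Atp5b 19712. In WT Neg replicate 1 (71300) they gave 15070 and 25255. Both therefore weigh heavily in this share, which was not computed without them. Shares of a library are parts of 1 whole, so those of the complexes are not independent. Complex II made up 6.01% ± 0.116 (SD, n = 3) in WT Neg and 5.28% ± 0.362 in WT High, and complex III 12.3% ± 0.167 and 11.4% ± 0.111, both without overlap. In ΔHx complex I was 27.1% ± 0.764 in High and 24.9% ± 0.0922 in Neg, and complex V 38.1% ± 0.555 and 40.3% ± 0.43. Complexes I, II, III and V did not overlap between High and Neg in either genotype, each with a two-sided exact permutation p of 0.1, the smallest possible. Complex IV overlapped in WT (exact permutation p = 0.2) and did not in ΔHx.

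Transcript length went with the direction of change among members. In WT High against Neg, 7 of 33 members under 700 bases were higher and 5 lower, 0 and 6 of 26 between 700 and 1200 bases, and 0 and 11 of 25 over 1200 bases. Among all tested genes over 1200 bases 22.8% were higher and 22.4% lower, so long genes in general leaned neither way. Across the 84 members Spearman's rho between length and log2 change was -0.50, and across 14614 tested genes with a length it was 0.01. Members share libraries and are not independent, so this is a description. It was -0.43 in WT Mid against Neg, -0.37 in ΔHx High against Neg and -0.51 in ΔHx Mid against Neg. Between High and Mid it was -0.33 in WT and 0.23 in ΔHx. Between genotypes it was 0.44 in High, -0.37 in Mid and 0.04 in Neg, where 0 members were called. It was also seen in the 77 genes of the mitochondrial ribosome (-0.39) and not in the 80 of the cytosolic ribosome (0.21).

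The balance of short and long members also varied between replicates of a group. The mean log2 value of the 33 short members minus that of the 25 long ones was -0.31, -0.42 and -0.62 in WT High, -0.44, -0.58 and -0.78 in WT Mid and -0.81, -0.82 and -0.76 in WT Neg. In the same libraries Rn45s took 37.9%, 36.8% and 29.0%, then 44.0%, 34.9% and 28.6%, then 32.1%, 25.5% and 23.7% of the reads in genes. In ΔHx the differences were -0.47, -0.42 and -0.71 in High, -0.58, -0.53 and -0.39 in Mid, against -0.83, -0.78 and -0.81 in Neg. Rn45s took 27.9%, 37.5% and 30.7%, then 30.3%, 36.2% and 43.0%, then 30.1%, 29.2% and 27.9% there. The library of a group with the lowest Rn45s share had the lowest balance in WT High, WT Mid and ΔHx Mid. It did not in ΔHx High, WT Neg or ΔHx Neg, and in WT Neg it had the highest balance. With the Rn45s share as a covariate, 21 of the 29 calls of WT High against Neg were kept, 6 of 15 of WT Mid against Neg, 28 of 29 of ΔHx High against Neg and 14 of 24 of ΔHx Mid against Neg. With the length trend of each library removed, all 29 calls were kept in High against Neg of either genotype. All 15 were kept in WT Mid against Neg, and 21 of 24 in ΔHx Mid against Neg. That trend was fitted over all 14614 tested genes with a length and not over members. It therefore cannot take out a relation of length and change that is particular to members.

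**Figure D3:**
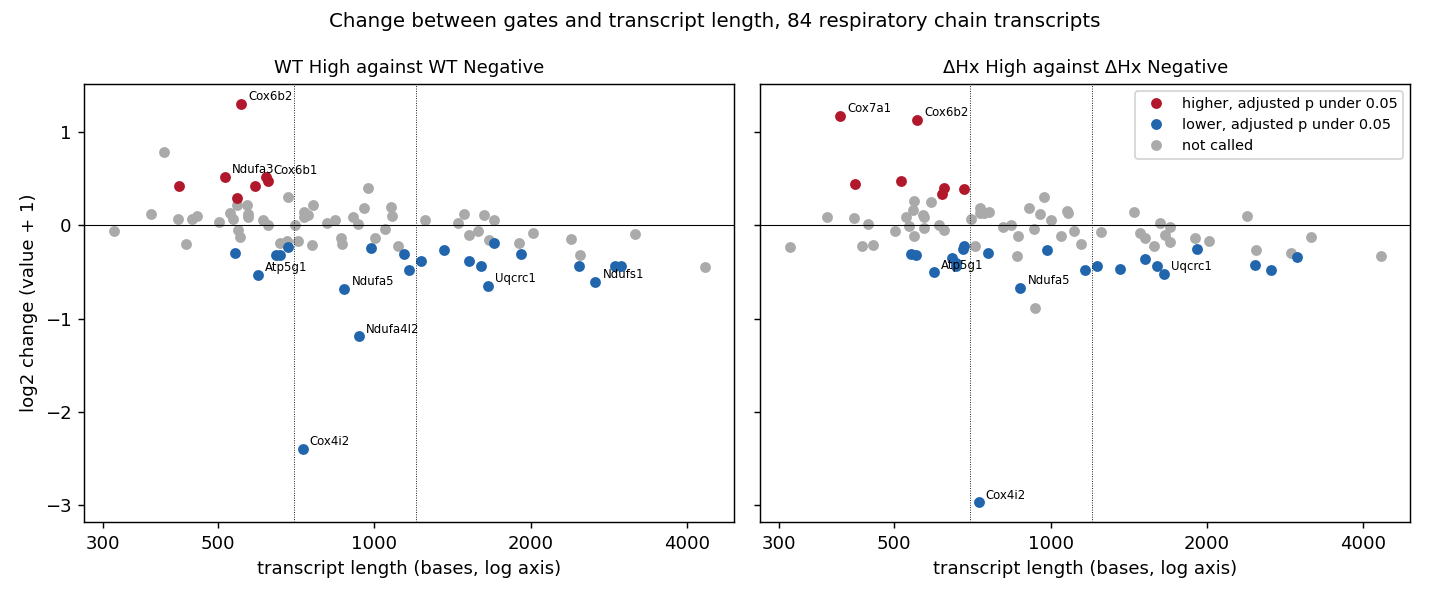
Log2 change between High and Neg against transcript length in bases (log axis) for the 84 tested members, in WT and ΔHx. Points are members, and dotted lines mark 700 and 1200 bases. Members called higher are all under 700 bases in both genotypes, and members over 1200 bases lie mostly below 0.

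WT Mid differed less from WT Neg than WT High did. Of 84 members 5 were higher (Cox6a1, Cox6b1, Ndufa3, Ndufb11 and Uqcrq) and 10 lower, beside 17.4% and 15.4% of all genes. Quantile normalisation gave 5 and 6, beside 2140 and 2591 of all 14711 genes. Equal totals gave 7 and 8, beside 2643 and 2111. Cox6b1, Ndufa3, Cyc1 and Uqcrc1 were called in each of the 19 settings, and the fit without WT Mid replicate 1 kept 7 of the 15 calls. By complex, 2 of 35 subunits of complex I were higher and 1 lower, 0 and 1 of 4 in II, 1 and 3 of 9 in III, 2 and 2 of 13 in IV and 0 and 2 of 15 in V. WT High against WT Mid had 1 member higher (Sdhaf4) and 8 lower (Ndufa5, Uqcrq, Ndufs1, Atp5g1, Cox7c, Cox5a, Uqcrc1 and Sdhd), beside 12.1% and 12.4% of all genes. Quantile normalisation gave 1 and 3, beside 1817 and 1820 of all genes, and equal totals 2 and 3, beside 2163 and 1389. Ndufa5, Ndufs1 and Uqcrq stayed lower under all 3 scalings. The fit of the compared groups alone kept 1 of the 9 calls.

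The same contrasts were read in ΔHx embryos. In ΔHx High against Neg 7 members were higher and 22 lower, beside 21.5% and 21.1% of all genes. Quantile normalisation gave 12 and 13, beside 2628 and 3327 of all 14711 genes, and equal totals 11 and 14, beside 3776 and 2486. Of the 29 calls in each genotype 23 were shared (79.3% of each), 5 higher and 18 lower, and 0 were opposite. Cox6b1, Cox6b2 and Ndufa3 were higher, and Atp5a1, Atp5g1, Cox4i2, Ndufa5, Ndufb6, Ndufs1, Sdhd, Uqcrc1 and Uqcrfs1 lower, in each of the 19 settings. In ΔHx Mid against Neg 11 were higher and 13 lower, beside 17.9% and 16.5%. Quantile normalisation gave 17 and 7, beside 2177 and 2533 of all genes. The fit without ΔHx Mid replicate 3 kept 13 of the 24 calls of the main fit. Shared with WT were 13 calls, 86.7% of the 15 in WT and 54.2% of the 24 in ΔHx. In ΔHx High against Mid 0 were higher and 11 lower, beside 13.3% and 12.3%, and 4 of these (Atp5g1, Cox8a, Ndufa5 and Uqcrq) were lower in each setting. The fit without ΔHx High replicate 3 kept 6 of the 11.

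Between the genotypes 0 members were called within a gate in the main limma fit. In ΔHx against WT 0 of 84 were called in High, where 0.0612% of all genes were higher and 0.0612% lower. In Mid 0 were called, beside 0.0748% higher and 0.326% lower. In Neg 0 were called, beside 0.136% and 0.109%. At an unadjusted p under 0.05 there were 2, 1 and 1 members in High, Mid and Neg, all higher. edgeR called 0 members in each gate and DESeq2 1 in High and 1 in Mid. DESeq2 also called more of all genes: 37 higher and 47 lower in High, and 42 and 137 in Mid. The main fit called 9 and 9 in High and 11 and 48 in Mid. With the length trend removed, or with the Rn45s covariate, limma called 1 member in High. Of all genes these settings called 10 higher and 11 lower, and 17 and 19, in High. The 95% interval of the difference lay within 2-fold for 81, 82 and 81 of the 84 members, and within 1.5-fold for 78, 76 and 77, in that order of gates. The exceptions to 2-fold were the low-level Cox4i2, Cox7a1 and Ndufa4l2. The median log2 difference of members was -0.03, 0.03 and 0.01 for the High, Mid and Neg gates. Tests of whether the difference varied between gates called 0 members. Members of this set with the smallest p besides Cox7b were, as values, Ndufs1 in High (0.27, adjusted p = 0.55) and Ndufb8 in High (-0.20), Sdhaf2 and Ndufc2 in Mid (-0.22 and 0.15) and Uqcrq and Uqcrc2 in Neg (-0.20 and 0.13).

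The member called by DESeq2 was Cox7b, a small subunit of complex IV encoded on the X chromosome (X:106015700-106022450, plus strand, a transcript of 1001 bases). It was 2414, 2351 and 1990 in WT High and 2952, 2864 and 3837 in ΔHx High. For Mid it was 2593, 2417 and 2334 in WT and 3084, 3171 and 3565 in ΔHx. For Neg it was 2414, 2480 and 2509 in WT and 2994, 2917 and 3299 in ΔHx. All 9 ΔHx libraries were above all 9 WT libraries. It was 1 of 12 such genes among the 14711 tested (0.0816%), and 12 genes had all ΔHx libraries below (0.0816%), 0 of them members. The log2 difference was 0.51 for High cells (95% interval 0.29 to 0.73), 0.42 for Mid cells (0.20 to 0.64) and 0.31 for Neg cells (0.094 to 0.53). In the main limma fit their adjusted p was 0.0761, 0.113 and 0.637. For High, limma gave an adjusted p of 0.0373 with the length trend removed and 0.0164 with the Rn45s covariate. DESeq2 gave an adjusted p of 0.0041 for High and 0.0294 for Mid, the smallest over the 19 settings, and the largest were 0.593 and 0.485.

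Averaged over the 3 gates, the Cox7b difference was 0.41 ± 0.0605 (SE, 95% interval 0.29 to 0.54, limma adjusted p = 0.000886). This average was a further contrast of the same fit, and called 0.421% of genes higher and 0.421% lower, with Cox7b the only member. It was called in each setting run, with adjusted p from 2.1e-07 to 0.00347. The difference in Cox7b was largest in High and smallest in Neg, and the tests of whether it varied between gates did not call it. The change of Cox7b from Neg to High was -0.14 in WT and 0.06 in ΔHx, neither called. The other X-linked members, Ndufa1 and Ndufb11, differed by -0.05 and 0.02 on average between genotypes. The embryos were pooled without sexing and the lines shared a mixed background, whose part in this difference was not tested.

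**Figure D4:**
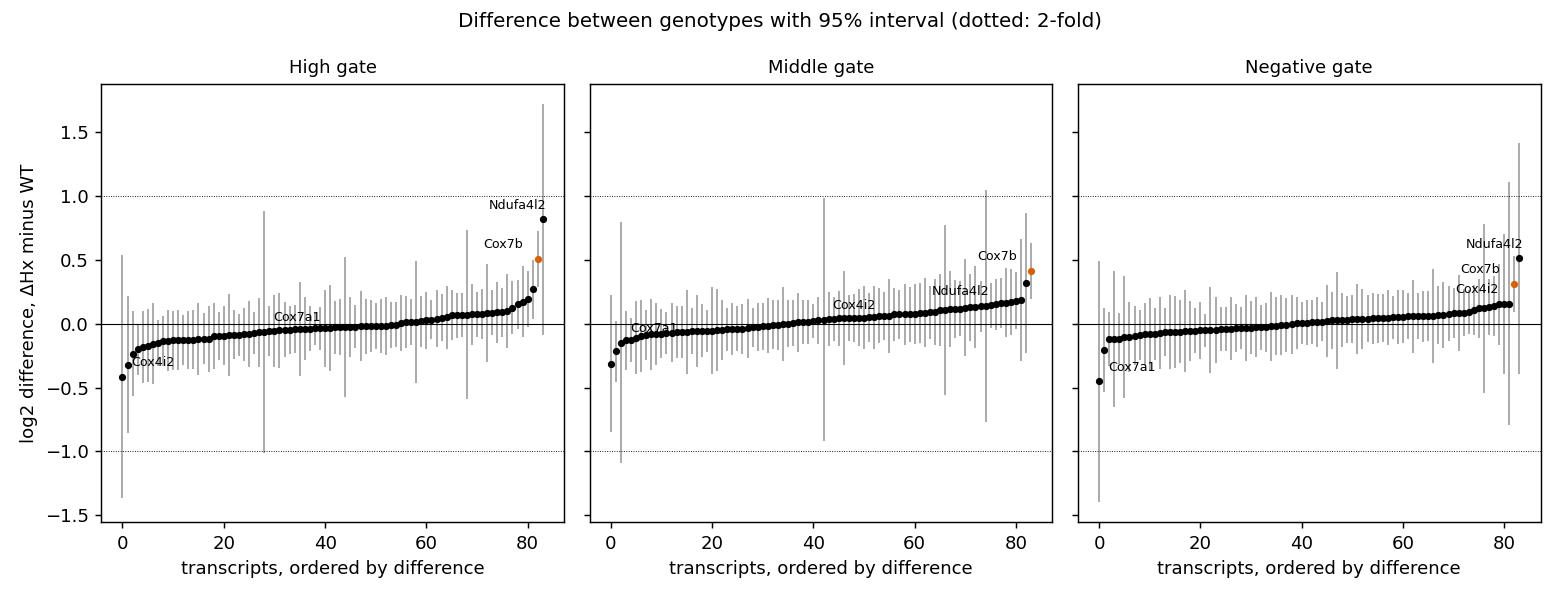
Log2 difference of ΔHx minus WT for the 84 tested members in the High, Mid and Neg gates, with 95% intervals from limma (3 libraries a group). Dotted lines mark 2-fold. Most intervals include 0 and lie within 2-fold, and Cox7b lies above 0 in all 3 gates.

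Other gene lists of energy metabolism, chosen with results of these data known, were read in the same contrast of WT High against Neg. Of all genes 22.6% were higher and 21.8% lower there. Of 18 genes of glycolysis 0 were higher and 14 lower, with a median log2 change of -0.61, against -0.05 for the respiratory members. Slc16a3, which exports lactate, was 1312, 1649 and 1728 in WT High and 3885, 4674 and 5254 in WT Neg (-1.56 ± 0.17 SE, adjusted p = 6.57e-07). Aldoc, an aldolase, was lower by -1.43 (adjusted p = 0.0076) and Pfkp, a phosphofructokinase, by -1.42 (adjusted p = 0.000563). Of 13 genes of the citric acid cycle 0 were higher and 5 lower. Idh3a, a subunit of isocitrate dehydrogenase, fell by 0.98 and Cs, citrate synthase, by 0.64 on the log2 scale (adjusted p = 1.07e-06 and 6.02e-06).

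Of 44 assembly factors of the chain 3 were higher and 13 lower, with a median of -0.23, and the share lower is not far from that of all genes. This list includes the members Sdhaf1 to Sdhaf4, so it is not separate from the set, and Sdhaf2 is among those lower. Ecsit, a factor of complex I assembly, was 255, 202 and 219 in WT High and 387, 431 and 452 in WT Neg (-0.91 ± 0.15 SE, adjusted p = 7.44e-05). Of 77 proteins of the mitochondrial ribosome, which makes the subunits encoded in mitochondrial DNA, 4 were higher and 37 lower (median -0.25). Of 16 regulators 0 were higher and 6 lower, led by Pprc1, a PGC-1 related coactivator, at 1033, 1084 and 1043 in WT High and 2046, 2235 and 2180 in WT Neg (-1.03 ± 0.087 SE, adjusted p = 1.7e-08). Gabpa, the DNA-binding part of GABP, fell by 0.64 on the log2 scale (adjusted p = 0.00161). Cycs, the somatic cytochrome c, fell by 0.43 (adjusted p = 0.000658).

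Of 9 genes of carriers and ATP exchange 2 were higher and 5 lower. The list held the carriers Slc25a3, Slc25a4, Slc25a5, Slc25a31 and Ucp2. It also held Vdac1, Vdac2, Vdac3 and Atpif1, which are no such carriers. Slc25a4 and Slc25a5, which both exchange ADP for ATP across the inner membrane, moved in opposite directions. Slc25a4 was 4828, 5090 and 5464 in WT High and 2399, 2677 and 2969 in WT Neg (0.94 ± 0.10 SE, adjusted p = 5.93e-07). Slc25a5 was 4329, 4823 and 5098 against 7581, 8000 and 8167 (-0.74 ± 0.086 SE, adjusted p = 1.13e-06). Ucp2, a carrier of the uncoupling protein family, was 1274, 1200 and 1669 in WT High and 434, 551 and 577 in WT Neg (1.40 ± 0.13 SE, adjusted p = 8.86e-08). In ΔHx High against Neg these changes were 0.94 for Slc25a4, -0.64 for Slc25a5 and 1.44 for Ucp2. Glycolysis there had 0 higher and 13 lower, and the mitochondrial ribosome 1 and 39. In ΔHx High against WT High each of these lists had 0 members called in either direction.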

How the data were processed

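RNA of 18 sorted samples was sequenced from 1 end for 75 bases, per the labels' protocols. The deposited table holds a signal: read counts per gene, scaled by a size factor for each library. The submitters' processing notes name HTSeq 0.6.1, STAR 2.5.2a, mm10, DESeq2 and DESeq. The gene annotation behind the counts was not given in the sources used here. HTSeq's 5 counters (no feature 7.17% to 12.1%, ambiguous 0.495% to 0.756%, not unique 37.7% to 41.3% of what was counted) stayed out of all tests, leaving 24498 genes. Whole reads were recovered: 440964 of 440964 values were whole multiples of 1 read within 1e-06 reads.

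Values were analysed as log2(value + 1) with limma 3.58.1 (R 4.3.3), using 6 group means over 18 libraries and a variance trend, on 14711 genes that reached a value of 10 in 3 or more libraries. Tests were two-sided and adjusted by Benjamini-Hochberg within each contrast. Changes of low genes are understated on this scale. Other settings were a pseudocount of 0.5 or 5, a filter at 50 or none, quantile normalisation, equal totals without Rn45s, a replicate block, the compared groups alone, edgeR 4.0.16 and DESeq2 1.42.0 on recovered reads, and each library left out. Removing a length trend and adding the Rn45s share as a covariate were chosen after seeing the data. On recovered reads edgeR called 3293 genes higher and 3175 lower in WT High against WT Neg. The members and lists were chosen with earlier results of these data known. Named members were the largest called changes per WT gate contrast (up to 6 each way, the higher group at a mean of 20 or more), isoform pairs, anchors of each complex, members that are no subunit, and in genotype contrasts the called members or the 3 smallest p. Others, such as Ndufb6, Ndufa11, Uqcrfs1, Atp5c1, Atp5f1 and Sdhd, were named after their values were seen, mostly as calls that held or failed across settings. Transcript lengths and positions are from GENCODE vM21 (mm10). Replicate numbers are not said to pair samples and were not used as pairs. No pair of replicates agreed within sampling noise (chi-square over degrees of freedom 5.12 to 105).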

Additional observations from a re-analysis of the deposited data

How the results depend on the processing

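Counts of called members by limma moved with scaling, the fitted groups, the covariates and single libraries. Quantile normalisation gave 19 higher and 10 lower in WT High against WT Neg (main 7 and 22), 6 lower in WT Mid against Neg (10), 3 lower in WT High against Mid (8), 12 and 13 in ΔHx High against Neg (7 and 22) and 17 and 7 in ΔHx Mid against Neg (11 and 13). Under it Atp5g3 (0.0837) and Ndufv1 (0.0215) reversed in WT High against Neg. Equal totals without Rn45s gave 16 higher in WT High against Neg, 2 higher and 3 lower in WT High against Mid, and 11 and 14 in ΔHx High against Neg. The length trend setting gave 8 higher in WT Mid against Neg (5) and 1 higher in ΔHx High against WT High (0). The Rn45s covariate gave 2 higher in WT Mid against Neg, 2 higher and 13 lower in WT High against Mid, 5 higher in ΔHx Mid against Neg and 1 in ΔHx High against WT High. The compared groups alone, which have fewer libraries, gave 5 lower in WT Mid against Neg, 0 higher and 1 lower in WT High against Mid and 7 lower in ΔHx High against Mid (11). DESeq2 gave 2 higher in WT High against Mid and 1 higher in ΔHx against WT in High and in Mid. The cause was not tested elsewhere.

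Leaving out 1 library gave 2 to 6 higher and 5 to 11 lower in WT Mid against Neg, 1 to 2 higher in WT High against Mid, 3 to 11 higher in ΔHx High against Neg, 5 to 13 higher and 8 to 13 lower in ΔHx Mid against Neg and 6 to 11 lower in ΔHx High against Mid. The libraries behind moves over 1.5 times were WT Mid replicates 1 and 2, WT Neg replicates 1 and 3, ΔHx High replicates 1, 2 and 3, ΔHx Mid replicate 3 and ΔHx Neg replicates 1 and 3. The replicate block moved 3 counts, each by 1 call: 21 lower in WT High against Neg, 9 lower in WT Mid against Neg and 10 higher in ΔHx Mid against Neg. Deviations of samples with equal numbers correlated at -0.171 to 0.291 and the labels do not pair them. The average over gates was not fitted in the compared groups alone.

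Depth limits Cox4i2, Cox7a1, Ndufa4l2 and the untested tissue forms, which had few reads. Genes that share stretches with others, Ndufs5 among them, are limited by read assignment.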
